A study of Homo sapiens with 5 samples.

Results

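The genes CD2, CD5, CD6, CD28, CTLA4 and ICOS encode receptors on the surface of T cells. Their chromatin was examined in MOLT-4, an established human line of T cell acute lymphoblastic leukaemia, through the peaks that fall in 4 windows of the hg19 genome. The windows are defined by position, but they were chosen with earlier results of these data known. The CD2 window was chromosome 1 from 117270001 to 117330000, and the CD5 window was chromosome 11 from 60850001 to 60910000. The CD6 window was chromosome 11 from 60720001 to 60800000. CD28, CTLA4 and ICOS shared 1 window, chromosome 2 from 204550001 to 204840000. The 4 windows held 36 of the 51392 peaks on chromosomes 1 to 22 and X: 4 of 13181 for H3K4me3, 29 of 36736 for RUNX1 and 3 of 1475 for the target labelled SMA4, a name that the labels do not spell out.

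The peaks came from CUT&RUN, a method that sequences the DNA fragments cut loose by a nuclease which an antibody holds at its target on chromatin. Each of the 3 antibodies had 1 library from MOLT-4 cells grown in serum-supplemented RPMI medium, and the labels give no genotype change, drug or time course. The 2 IgG control samples were not analysed here. The deposited lists give the position of each peak and no height, fold or read count, so read depth is unknown, no value has a replicate error, and no test was made. Width is therefore the size reported for a peak, and it is read within a list only. The SMA4 library also went with another batch folder and another peak-calling pipeline, and the parts of target, batch and pipeline in its peaks cannot be told apart.

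H3K4me3, trimethylated lysine 4 of histone H3, marks promoters that are active or poised. RUNX1 is a transcription factor that binds DNA through its runt domain and takes part in T cell development and in T cell leukaemia. CD2 is an adhesion receptor that binds CD58 on partner cells. CD5 and CD6 are related receptors with scavenger-receptor cysteine-rich domains that tune signals of the T cell receptor, and CD6 binds ALCAM. CD28 is the main costimulatory receptor and binds CD80 and CD86. CTLA4 is an inhibitory receptor for the same ligands, and ICOS is a related costimulator that appears after activation. In the RefSeq gene table, CD6 and CD5 are neighbours, and CD28, CTLA4 and ICOS follow one another with no other protein-coding gene between them. No hg19 gene annotation was used, so which peak lies at which gene's start was not determined, and marker genes outside the windows were not examined.

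RUNX1 binds a short core element, TGTGGT, so the promoters of the members were read for it. RefSeq sequences of build GRCh38.p14, from 250 bases before to 50 after the start, matched 4 of the 6 genes: CD2, CD28, CTLA4 and ICOS. CD5 and CD6 were not matched. TGTGGT on either strand occurred in the CD28 promoter, once, and in none of the other 3. Of 35114 promoters of that length, 13.1% held it. The longer form TGTGGTT, which contains TGTGGT, was found at the same CD28 site and in 4.27% of all promoters. TGCGGT, another form of the core, was found in none of the 4 and in 7.29% of all. The CD28 match begins 109 bases before the start, on the strand of the gene. The first line below gives the 30 bases around it, with the match in capitals, because it is the one match among the members. The other lines give the 250 bases before the start of CD2, CTLA4 and ICOS, all on the plus strand of their chromosomes, to show promoters without one.
CD28: gtcaggatgcctTGTGGTttgagtgccttg
CD2: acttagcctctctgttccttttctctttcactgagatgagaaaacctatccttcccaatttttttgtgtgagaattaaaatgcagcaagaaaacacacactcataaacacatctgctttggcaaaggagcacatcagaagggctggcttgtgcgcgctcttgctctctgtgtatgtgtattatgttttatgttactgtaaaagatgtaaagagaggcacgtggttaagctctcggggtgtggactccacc
CTLA4: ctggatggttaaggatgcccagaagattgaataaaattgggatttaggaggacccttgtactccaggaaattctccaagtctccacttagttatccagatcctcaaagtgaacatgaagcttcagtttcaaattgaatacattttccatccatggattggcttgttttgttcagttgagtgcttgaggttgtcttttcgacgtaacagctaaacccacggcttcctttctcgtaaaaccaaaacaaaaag
ICOS: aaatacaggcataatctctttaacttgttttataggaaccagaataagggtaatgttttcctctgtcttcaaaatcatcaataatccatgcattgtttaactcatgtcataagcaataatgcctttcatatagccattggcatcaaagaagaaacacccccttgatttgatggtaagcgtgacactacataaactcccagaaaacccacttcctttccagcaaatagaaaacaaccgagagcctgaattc

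A match is a run of letters and not a shown binding site, and a promoter without one says only that these letters are missing from that stretch. The sequence under the peaks themselves was not read, since no hg19 sequence was used here.

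The windows fell into different arrangements of the lists. The CD2 window held H3K4me3 and RUNX1, with 3 and 8 peaks, and the CD5 window held both with 1 and 4 peaks. The CD6 window held 5 RUNX1 peaks and neither H3K4me3 nor SMA4, which 79.5% and 96.8% of all stretches of 80 kb along the chromosomes also lacked. Of the stretches with a peak of any list, 48% lacked H3K4me3 and 91.9% lacked SMA4. The CD28, CTLA4 and ICOS window held 12 RUNX1 peaks and all 3 SMA4 peaks but no H3K4me3 peak. RUNX1 was thus the one list with peaks in every window. Per 100 kb, RUNX1 had 13.3 peaks in the CD2 window, 6.67 in the CD5 window, 6.25 in the CD6 window and 4.14 in the CD28, CTLA4 and ICOS window, against 1.21 over chromosomes 1 to 22 and X. RUNX1 peaks covered 12.1%, 3.15%, 4.08% and 3.30% of the windows in the same order, against 0.962% overall. Much of the genome holds no peak at all, so a window chosen around a gene is set against an average that includes gene-poor sequence.

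**Figure D1:**
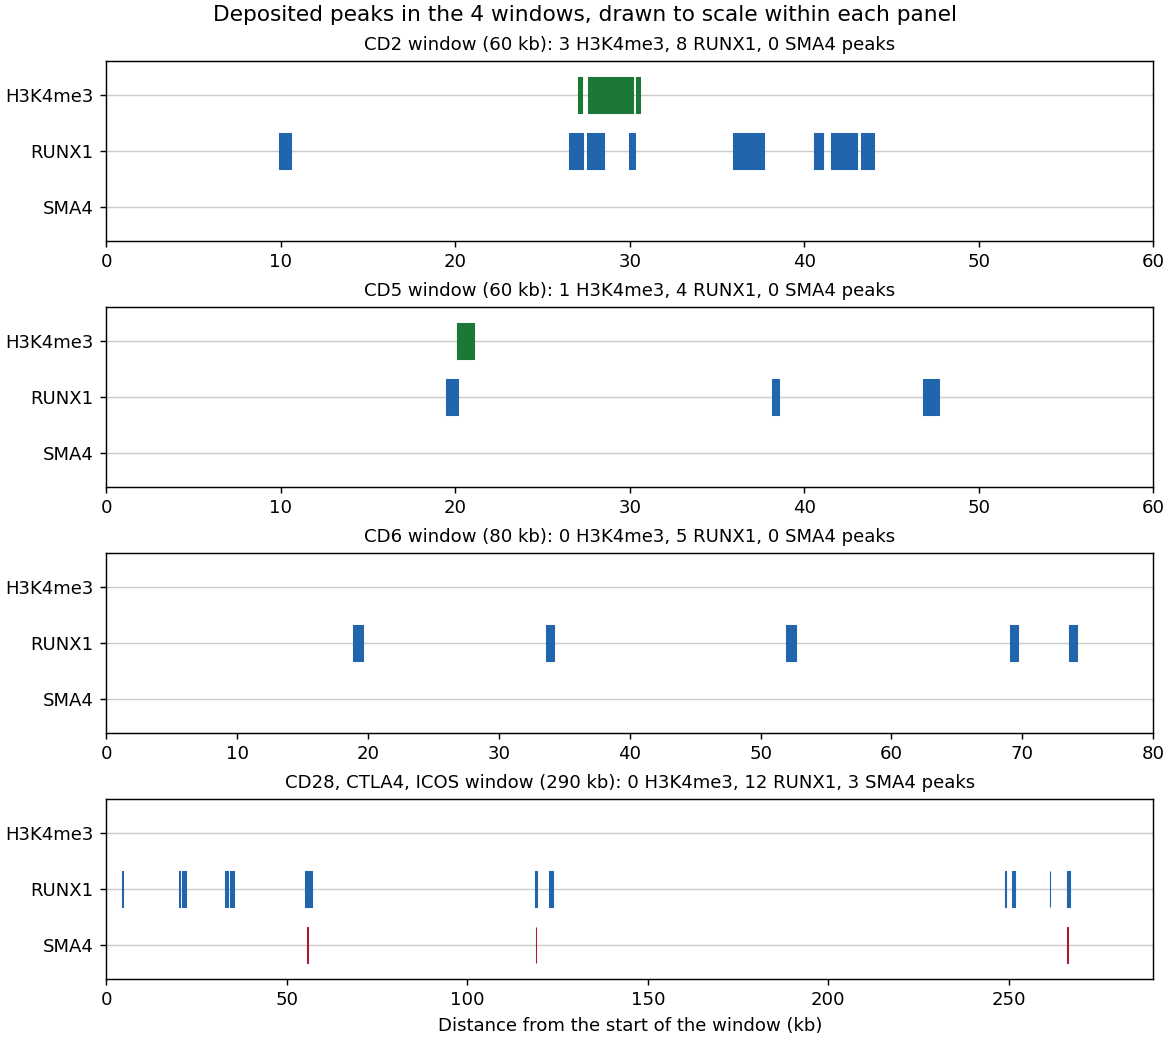
Peaks of the H3K4me3, RUNX1 and SMA4 lists in the 4 windows, by distance from the start of each window in kb, with bars as wide as the peaks apart from a thin outline. H3K4me3 appears in the CD2 and CD5 windows, SMA4 appears 3 times in the CD28, CTLA4 and ICOS window, and that window has a stretch of 125 kb without a peak.

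For a background, each chromosome was cut into consecutive tiles as long as a window, and the peaks of every tile were counted. Of 50529 tiles of 60 kb, 0.766% held at least the 8 RUNX1 peaks of the CD2 window and 5.42% held at least the 4 of the CD5 window. Of 37894 tiles of 80 kb, 5.24% held at least the 5 RUNX1 peaks of the CD6 window. Of 10443 tiles of 290 kb, 7.46% held at least 12, as the CD28, CTLA4 and ICOS window did. The CD2 window was therefore the most crowded of the 4 for its length, and the other 3 lay at similar places in their distributions. When tiles without a peak of any list were left out, a choice made after the data had been seen, the shares were 2.27%, 16.0%, 13.3% and 11.8%. The order of the CD2 window before the other 3 was the same, and the share for each was higher. With peaks within 500 bp joined, the CD2 window held 5 RUNX1 peaks. At least 5 unjoined RUNX1 peaks were found in 3.20% of all 60 kb tiles, and the share with joined peaks was not computed.

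**Figure D2:**
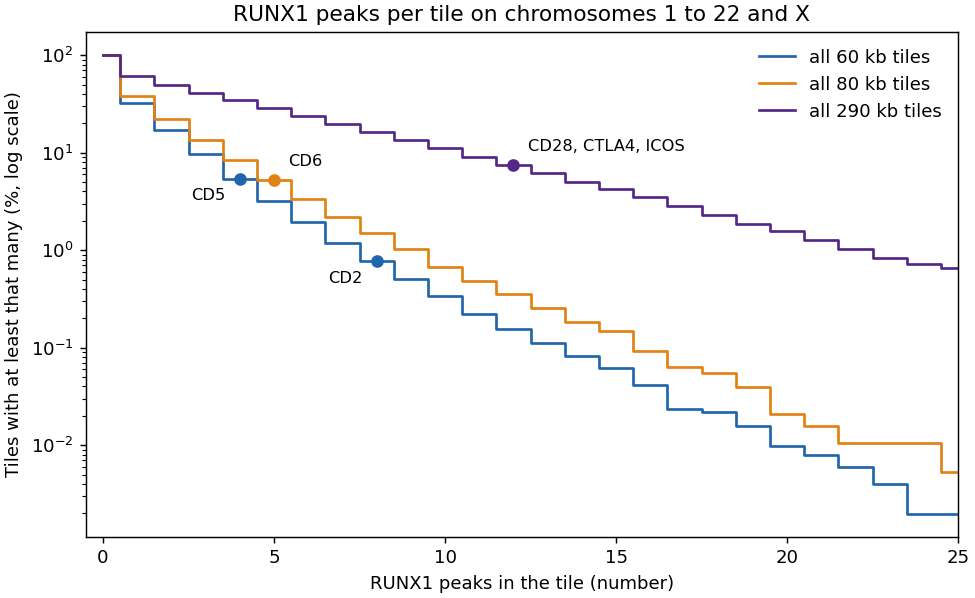
Share of tiles (%, log scale) with at least a given number of RUNX1 peaks, for tiles of 60, 80 and 290 kb on chromosomes 1 to 22 and X, with a point for each window at its own count. The CD2 window, at 8 peaks, meets its curve at 0.766%, and the other 3 windows lie between 5.24% and 7.46%.

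In the CD2 window, H3K4me3 and RUNX1 peaks were packed together and RUNX1 continued beyond the mark. The 3 H3K4me3 peaks stood side by side on chromosome 1: 117297011 to 117297273 (263 bp), 117297584 to 117300186 (2603 bp) and 117300375 to 117300564 (190 bp). The central one was wider than 95.8% of the H3K4me3 list, whose median was 938 bp, and the outer ones were wider than 17.8% and 8.90% of it. The gaps between them were 310 and 188 bp, so that they form 1 stretch when peaks within 500 bp are joined. At least 3 H3K4me3 peaks were found in 2.19% of 60 kb tiles, or in 6.49% of those with a peak of any list. At least 1 unjoined H3K4me3 peak was found in 16.8% of all 60 kb tiles, and the share with joined peaks was not computed. The next H3K4me3 peaks of the list lay 156 kb before the window and 271 kb after it.

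RUNX1 overlapped the first H3K4me3 peak of CD2 and both ends of the central one. The RUNX1 peak from 117296500 to 117297296 (797 bp) contained the whole first H3K4me3 peak. The RUNX1 peak from 117297543 to 117298498 (956 bp) shared 915 bp with the left part of the central peak. A narrower one from 117299963 to 117300286 (324 bp) shared 224 bp with its right end. The third H3K4me3 peak began 88 bp beyond that RUNX1 peak and overlapped none. The middle of the wide H3K4me3 peak thus lay between a pair of RUNX1 peaks, 1464 bp apart, with no RUNX1 peak of its own.

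The widest RUNX1 peaks of the CD2 window lay outside the mark. The widest, from 117305922 to 117307671 (1750 bp), was wider than 93.8% of the RUNX1 list and lay 5.36 kb beyond the last H3K4me3 peak. The second, from 117311566 to 117313052 (1487 bp), was wider than 89.7% of the list. The second was flanked by peaks of 513 bp and 768 bp at gaps of 479 and 200 bp, which made a second dense group of 3. Its last member, from 117313253 to 117314020, was the fifth widest of the window. A peak of 681 bp from 117279917 to 117280597 stood 15.9 kb before the first RUNX1 peak at the mark. No SMA4 peak lay in this window, and the nearest ones were 405 kb before it and 580 kb after it. Of all 60 kb tiles, 97.5% held no SMA4 peak, or 92.7% of those with a peak of any list. The share without SMA4 among tiles as rich in RUNX1 as this window was not computed.

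In the CD5 window the same lists met over a few bases. The H3K4me3 peak on chromosome 11 from 60870121 to 60871098 measured 978 bp, close to the list's median of 938 bp. At least 1 H3K4me3 peak was found in 16.8% of 60 kb tiles, or in 49.8% of those with a peak of any list. A pair of RUNX1 peaks lay at its left edge, from 60869492 to 60869849 (358 bp) and from 60869954 to 60870174 (221 bp), with 104 bp between them. The second shared 54 bp with the H3K4me3 peak and the first ended 271 bp before it. At 221 bp the second peak had the minimum width of the RUNX1 list, and without peaks of that width no RUNX1 peak of this window overlaps the mark. The other 2 RUNX1 peaks, from 60888142 to 60888562 (421 bp) and from 60896813 to 60897699 (887 bp), lay 17.0 and 25.7 kb beyond the mark. The widest peak of the window was thus again one outside H3K4me3, as it was for CD2. No SMA4 peak was found from 888 kb before the window to 3992 kb after it. Over the list, the median gap from an SMA4 peak to the nearest other one was 190958 bp. That median takes only the nearer side of each peak, so it does not show whether a stretch of this length is unusual. The rank of the stretch among all gaps between neighbouring SMA4 peaks was not computed. The 97.5% of 60 kb tiles without SMA4 is the background here too, with the same limit for tiles as rich in RUNX1.

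**Figure D3:**
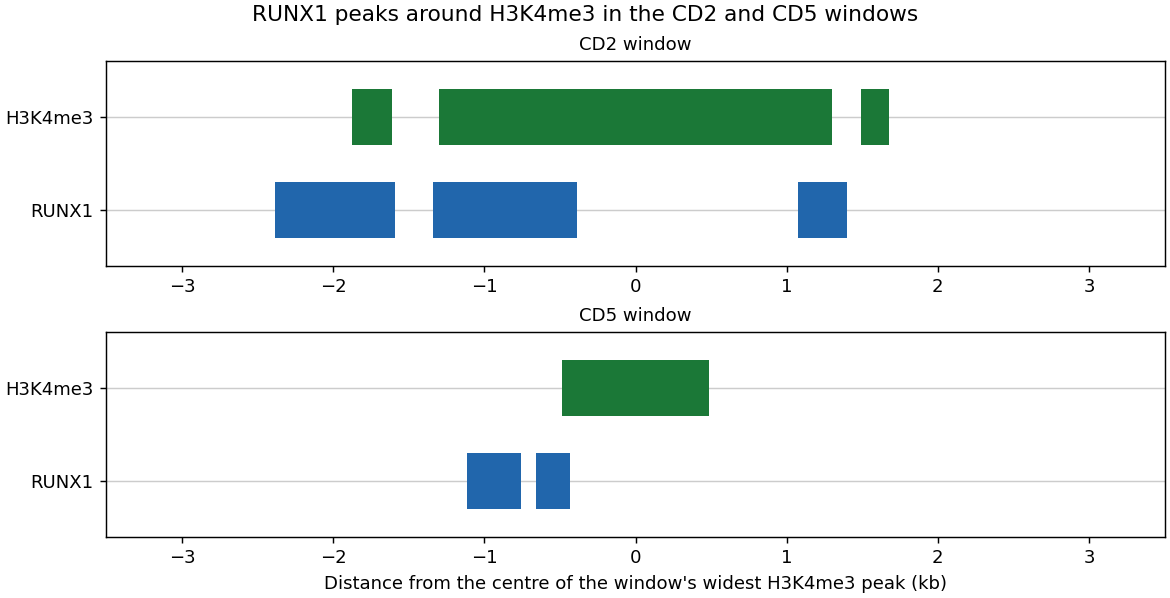
H3K4me3 and RUNX1 peaks by distance in kb from the centre of the widest H3K4me3 peak of the CD2 window (top) and the CD5 window (bottom), with bars as wide as the peaks. In the CD2 window RUNX1 peaks cover both ends of the 2603 bp H3K4me3 peak, and in the CD5 window 1 of 2 RUNX1 peaks reaches its left edge by 54 bp.

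The CD6 window held RUNX1 peaks alone, spread widely and of similar width. They lay on chromosome 11 from 60738840 to 60739601 (762 bp), 60753588 to 60754235 (648 bp), 60771974 to 60772714 (741 bp), 60789100 to 60789641 (542 bp) and 60793579 to 60794150 (572 bp). Their median of 648 bp was near the RUNX1 list's 645 bp, and none was wider than 59.4% of the list. Neighbours were at least 3937 bp and at most 17.7 kb apart, with no close pair like those of CD2 and CD5. H3K4me3 was missing from a stretch of 187 kb around them. That stretch ran from the H3K4me3 peak ending at 60683296 to the one of the CD5 window. Of the 1987 tiles of 80 kb with at least 5 RUNX1 peaks, 27.5% held no H3K4me3 peak. The nearest SMA4 peaks were 758 kb before and 4102 kb after the window.

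The CD28, CTLA4 and ICOS window held its RUNX1 peaks in 3 groups. The first, of 6 peaks, spanned 52.7 kb of chromosome 2 from 204554215 to 204606889. The second, of 2 peaks, spanned 4.94 kb from 204668697 to 204673639, after a gap of 61.8 kb. The third, of 4 peaks, spanned 18.1 kb from 204798854 to 204816958. These groups were read off at the 2 longest gaps and are a description of this window. Between the second and the third group, from 204673640 to 204798853, no list had a peak for 125 kb. Of 36713 gaps between neighbouring RUNX1 peaks over the chromosomes, 87.8% were shorter. This stretch is the longest of the 11 RUNX1 gaps of the window, so a rank among single gaps does not show it to be unusual. CTLA4 is the middle gene of the 3, but its place relative to this stretch was not determined here.

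The first group held the widest RUNX1 peaks of this window. The widest RUNX1 peak of all 4 windows, from 204604920 to 204606889 (1970 bp), ended the first group and was wider than 95.9% of the list. The peak from 204570807 to 204572091 (1285 bp) was wider than 84.8% of the list and had a narrow neighbour of 313 bp at a gap of 390 bp. A pair of 809 and 1003 bp lay from 204582738 to 204585304 with 755 bp between them. The remaining peak of this group measured 410 bp. In the second group the peaks measured 561 and 1019 bp. In the third they measured 350, 729, 221 and 913 bp, and the 221 bp peak had the minimum width of the list. The 5 widest peaks of the window were those of 1970, 1285, 1019, 1003 and 913 bp, of which the first and the last carried SMA4.

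Each of the 3 RUNX1 groups of this window carried 1 SMA4 peak. The SMA4 peaks lay from 204605678 to 204605962 (285 bp), from 204668895 to 204669036 (142 bp) and from 204816273 to 204816538 (266 bp), against a list median of 219 bp. The 142 bp peak was 1 bp above the minimum width of the list and wider than 1.15% of it. Every one was wholly inside a RUNX1 peak, of 1970, 561 and 913 bp in turn. The lists came from different pipelines, and the SMA4 list's median of 219 bp was below the RUNX1 list's 645 bp. Over the whole SMA4 list, 65.9% overlapped RUNX1 by 1 bp or more and 63.5% by at least 50% of the shorter peak. Most overlapping SMA4 peaks of the list thus overlapped RUNX1 to that extent, and the share wholly inside was not computed. The centres of the 3 SMA4 peaks lay 84.5, 11.5 and 96.5 bp from the centre of their RUNX1 peak, compared with a median of 144 bp over the 972 SMA4 peaks that overlap RUNX1. At least 3 SMA4 peaks were found in 0.843% of 290 kb tiles, or in 1.33% of tiles with a peak of any list. Most of these tiles held fewer RUNX1 peaks than this window, and the share among tiles as rich in RUNX1 was not computed. The next SMA4 peaks of the list lay 115 kb before the window and 6196 kb after it.

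All 3 SMA4 peaks overlapped RUNX1 (100%, 95% Wilson interval 43.9 to 100%), where 65.9% of the whole SMA4 list did. None overlapped H3K4me3 (95% Wilson interval 0 to 56.1%), where 21.8% of the list did. Both counts rest on 3 peaks of 1 window. Seen from RUNX1, 3 of 29 member peaks carried SMA4 (10.3%, 95% Wilson interval 3.58 to 26.4%) against 2.56% of all RUNX1 peaks. All 3 came from 1 window, and no RUNX1 peak of the CD2, CD5 and CD6 windows carried SMA4. Of the 3 RUNX1 peaks with SMA4, those of 1970 and 913 bp were above the RUNX1 list's median and that of 561 bp was below it. Over the whole list, RUNX1 peaks with SMA4 had a median of 1056 bp, against 635 bp without. These intervals cover counting error alone, and neighbouring peaks are not independent.

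**Figure D4:**
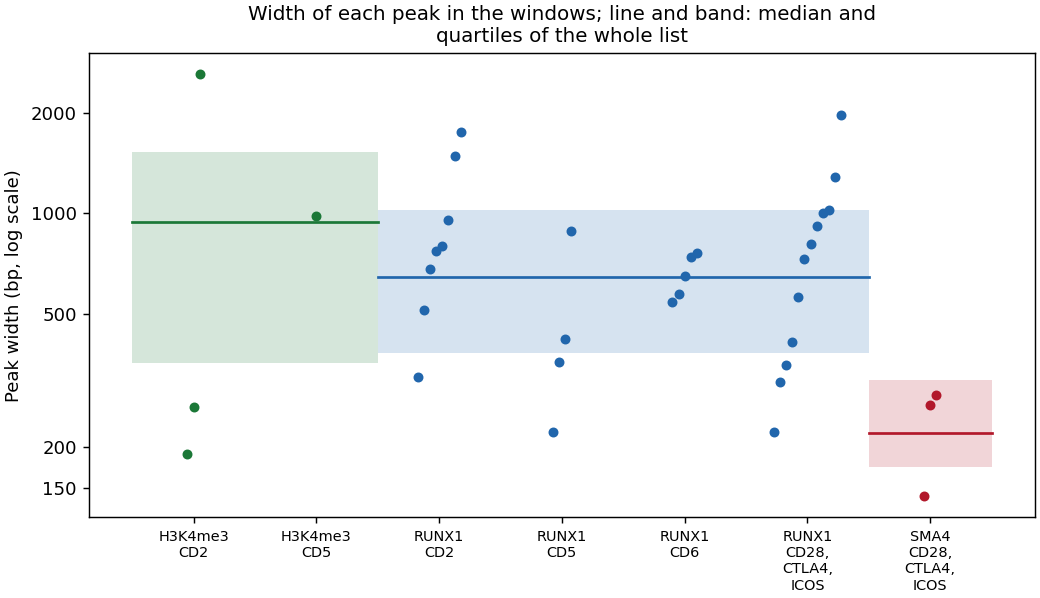
Width of each member peak (bp, log scale) by list and window, with a line at the median and a band over the quartiles of the whole list. The H3K4me3 peak of 2603 bp in the CD2 window and RUNX1 peaks of 1750 and 1970 bp in the CD2 and the CD28, CTLA4 and ICOS windows stand highest, and the 5 RUNX1 peaks of CD6 sit together near the list's median.

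Most RUNX1 peaks of the windows lay outside H3K4me3. Of 29, 4 overlapped the mark (13.8%, 95% Wilson interval 5.50 to 30.6%), which were 3 of 8 in the CD2 window, 1 of 4 in the CD5 window and none of 5 and of 12 in the others. Of the whole RUNX1 list, 32.2% did so. The 29 peaks are grouped, with 12 of them in 1 window, so the interval is no test of that difference. Seen from the mark, 3 of 4 H3K4me3 peaks overlapped RUNX1 (75%, 95% Wilson interval 30.1 to 95.4%) against 88.1% of the list. When peaks within 1 kb of each other counted as overlapping, 5 of 29 RUNX1 and 4 of 4 H3K4me3 peaks met the other list, against 35.1% and 93.7% of the lists. When the centre of the RUNX1 peak had to lie in the mark, 2 of 29 did, against 28.5% of the list.

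The other 25 RUNX1 peaks lay nearest to the mark in the CD2 and CD5 windows, whose distances overlapped, farther in the CD6 window and farthest in the CD28, CTLA4 and ICOS window, with no overlap between these steps. In the CD2 window the 5 RUNX1 peaks outside H3K4me3 lay 5.36 to 16.4 kb from it. In the CD5 window the 3 such peaks lay 0.271, 17.0 and 25.7 kb from it. All 5 peaks of CD6 lay 55.5 to 88.7 kb away, above the median of 51.0 kb over the 24890 RUNX1 peaks outside H3K4me3. The 12 peaks of the CD28, CTLA4 and ICOS window lay 360 to 622 kb away, and 92.2% of those 24890 lay closer than the nearest of them. No H3K4me3 peak was listed for 2.75 Mb of chromosome 2, between the peak ending at 204194126 and the one starting at 206948972. Of all 290 kb tiles, 57.4% held no H3K4me3 peak, or 32.7% of those with a peak of any list. Among the 779 such tiles with at least 12 RUNX1 peaks, 7.06% held no H3K4me3 peak, a smaller share than the 27.5% given above for tiles like the CD6 window. A longer tile also has more room for a peak of the mark.

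**Figure D5:**
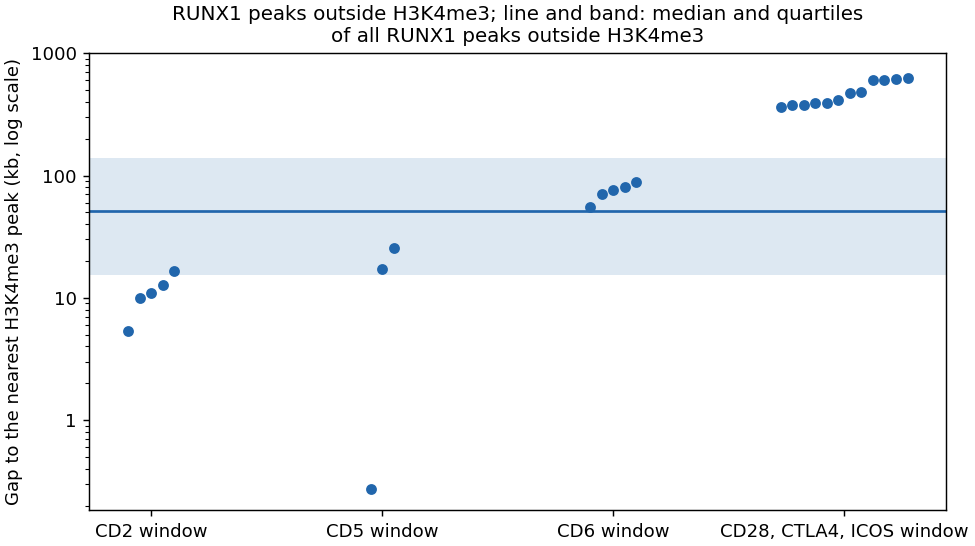
Gap in kb (log scale) from each RUNX1 peak outside H3K4me3 to the nearest H3K4me3 peak, by window, with a line at the median (51.0 kb) and a band over the quartiles of all RUNX1 peaks outside H3K4me3. Peaks of the CD2 and CD5 windows lie under the median, those of CD6 lie just above it, and those of the CD28, CTLA4 and ICOS window lie above 360 kb.

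Across the windows, the 29 RUNX1 peaks ranged from 221 to 1970 bp with a median of 729 bp, against 645 bp for the list, and 17 of 29 were wider than the list's median. By window the medians were 783 bp for CD2, 390 bp for CD5, 648 bp for CD6 and 769 bp for CD28, CTLA4 and ICOS, and the ranges overlapped. The median gap from a member peak to its nearest RUNX1 neighbour was 2902 bp, against 5410 bp for the list.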

How the data were processed

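Per the labels, CUT&RUN libraries of MOLT-4 cells were sequenced as paired ends. For the H3K4me3, RUNX1 and SMA4 libraries the authors deposited a peak list each, with chromosome, start, end and peak name and no score. Per the file headers, MACS2 gave the H3K4me3 and RUNX1 lists (folder batch 2), and cutruntools at a q threshold of 0.01 gave the SMA4 list (folder batch 3). Per the submitters' processing notes, MACS2, SEACR and hg19 were used. For the aligner, versions and other thresholds, the entry is "not given in the sources used here".

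Coordinates are printed 1-based. Sharing 1 bp or more counted as overlap with a peak or a window. Tiles ran from the first base of each chromosome to its highest peak end. Named peaks were all H3K4me3 and SMA4 peaks, the 5 widest RUNX1 peaks of each window and those with SMA4. Narrower RUNX1 peaks were added after their values were seen, where they border H3K4me3 or other named peaks or complete a window. Distances, tiles and motifs were computed with Python 3.11.15, numpy 2.4.6 and scipy 1.17.1, and the functions were tested on simulated data. The simulated peaks all lay too far apart to be joined, so the joining of close peaks was not tested. The members, lists and windows were chosen with earlier results of these data known. The planned list of other T cell genes was not run, as no hg19 annotation was used.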

Additional observations from a re-analysis of the deposited data

How the results depend on the processing

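Of 113 values recomputed under an alternative, 96 stayed within tolerance (counts within 1.5 times, medians within 1 SD of member widths, tile shares within their 95% Wilson interval) and 17 moved. Some of the 96 could not move. A count of 0 stays 0 when peaks are filtered or joined or a window is shortened. The SMA4 overlaps cannot change without the CD2 window, which held no SMA4 peak. The 96 is therefore no measure of how stable the values are. With peaks within 500 bp joined, the CD2 window held 1 H3K4me3 and 5 RUNX1 peaks, and the median width of H3K4me3 members was 2266 bp. With only peaks at least as wide as their list's median, it held 1 H3K4me3 peak, and RUNX1 had 1 peak in the CD5, 3 in the CD6 and 7 in the CD28, CTLA4 and ICOS window. With windows extended by 20 kb, the CD5 window held 2 H3K4me3 peaks. With the midpoint of the first peak in the second, 2 RUNX1 members overlapped H3K4me3 (28.5% of the list) and 1 H3K4me3 member overlapped RUNX1 (78.9% of the list). The next alternatives were chosen after seeing the data. Leaving out the CD2 window left 1 RUNX1 member at H3K4me3 (32.2% of the list). That was 1 among the 4, 5 and 12 RUNX1 peaks of the CD5, CD6 and CD28, CTLA4 and ICOS windows. The only H3K4me3 member left, in the CD5 window, overlapped RUNX1 (88.1% of the list). Restriction to tiles with a peak gave 2.27%, 16%, 13.3% and 11.8% for the CD2, CD5, CD6 and CD28, CTLA4 and ICOS windows. The motif TGCGGT matched 0 member promoters. No paired analysis was possible because each antibody had 1 library. Peak lists without read counts, from 1 library each, limit every value.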
